A study of Mus musculus with 10 samples.

Results

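Glycolysis and the hypoxia response were followed through 34 mouse genes, chosen by symbol from the 55866 genes of the deposited count table, and all 34 were present. They comprised 16 enzymes of the main path from glucose to lactate, 2 transporters, 3 regulators beside the path, 4 genes of the hypoxia-inducible factor (HIF) and its sensors, and 9 HIF targets outside the path. The samples were 10 libraries of polyadenylated RNA from a mouse cell line named iKCs in the labels. Cells were transduced with 1 of 4 lentiviral vectors and sorted for viability and for the vector's fluorescent marker mOrange. Overexpression of miR-342-3p (3 libraries) was set against a mutated version of that microRNA (2 libraries, called the mutated control here). A miR-342-3p sponge (3 libraries), an RNA that holds a microRNA away from its targets, was set against a scramble control sponge (2 libraries). Oxygen tension, glucose concentration and time after transduction are not given in the sources used here, and all groups share the lentiviral delivery and the sort. The labels call the libraries biological replicates without saying how the cultures were separated, so a p-value here measures only how these libraries spread, which may be technical.

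Glycolysis splits glucose into pyruvate in the cytosol, and lactate dehydrogenase turns pyruvate into lactate when cells ferment. HIF-1 is a dimer of the oxygen-labile subunit encoded by Hif1a and the stable partner encoded by Arnt; prolyl hydroxylases of the Egln family mark the labile subunit for degradation when oxygen is present. Its targets include most enzymes of the glycolytic path and genes of mitophagy, collagen hydroxylation and chromatin, and in macrophages the same axis accompanies inflammatory activation.

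The libraries held between 25713110 and 59260772 counts. Reads over the miR-342 hairpin gene Mir342 averaged 9.64 ± 1.54 CPM (read counts scaled to library size; SD over the 3 libraries) with overexpression. The average in the 2 mutated control libraries was 3.04 ± 0.256 CPM (SD). The sponge and scramble libraries had 0 such reads, which allows up to 0.0892 CPM in the shallowest of them (3 reads, counting error only). The 10 macrophage markers summed to between 6470 and 7370 CPM in every library, whereas the 9 markers of resident Kupffer cells summed to between 13.8 and 18.0 CPM. Of these, Clec4f and Timd4, which define such cells, had 0 reads in all 10 libraries and Vsig4 had at most 0.0934 CPM, while Id3 reached 6.43 CPM and Marco 4.26 CPM. Hepatocyte markers summed to at most 0.0985 CPM. The counts of sponge replicate 3 and of 1 scramble library stand joined in a single field of the deposited table and were separated by likelihood. The numbers 1 and 2 of the scramble libraries follow the header's order and are not certain. Every member's split passed the likelihood ratio asked for. Sponge replicate 3 also stood apart from the other sponge libraries in the path enzymes. Without it edgeR called 252 genes with overexpression against the mutated control, 37 with overexpression against the scramble and 7 for the difference of the effects, where 85, 7 and 0 were called with it, and 0 members in each case.

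The mature microRNA and the members' matches to its seed are shown first because the vectors were built around this sequence. In RefSeq (GRCm38.p6), mmu-miR-342-3p lies at chr12:108658680-108658702 on the plus strand. Capitals mark its seed, bases 2 to 8.
mmu-miR-342-3p: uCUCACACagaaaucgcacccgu
Seed matches of the 7mer-m8 kind (GTGTGAG) and of the 8mer kind (GTGTGAGA) were searched on the transcribed strand of each gene's longest 3′ UTR in the annotation (GENCODE vM21, GRCm38). They were found in 5 of the 34 members (14.7%), against 13.7% of 20546 genes of the table with a UTR; 8mer matches were found in 2 members (5.88%), against 4.20% of those genes. Each line below gives 30 bases around a match, with the match in capitals.
Slc2a1, 7mer-m8: cggactcccaaGTGTGAGgagccccacacc
Pfkl, 7mer-m8: tactgaggctcGTGTGAGccccatacctgc
Aldoc, 7mer-m8: cctgggctagaGTGTGAGgtagggtgacac
Arnt, 8mer: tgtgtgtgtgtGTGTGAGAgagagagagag
P4ha1, 7mer-m8: tcagagcaccaGTGTGAGtccctgggttcc
P4ha1, 8mer: ttgcctagaatGTGTGAGAtctgttattat
These lie at chr4:119136430-119136459 (plus strand, Slc2a1), chr10:77987544-77987573 (minus strand, Pfkl), chr11:78327298-78327327 (plus strand, Aldoc), chr3:95495907-95495936 (plus strand, Arnt), and chr10:59372602-59372631 and chr10:59372921-59372950 (plus strand, P4ha1). P4ha1 was the only member with more than 1 match. The Arnt match lies where a run of TG repeats meets a run of AG repeats.

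The promoters of 3 members are shown because these members had the smallest p among the members with overexpression against the mutated control. The letters ACGTG and GCGTG, the core of the hypoxia response element, were searched on both strands in 300-base RefSeq windows spanning each annotated start site (GRCm38.p6). Capitals mark the matches, which read CACGT or CACGC where they lie on the other strand; CACGTG counts as 2 matches and is also the E-box letter string.
P4ha1: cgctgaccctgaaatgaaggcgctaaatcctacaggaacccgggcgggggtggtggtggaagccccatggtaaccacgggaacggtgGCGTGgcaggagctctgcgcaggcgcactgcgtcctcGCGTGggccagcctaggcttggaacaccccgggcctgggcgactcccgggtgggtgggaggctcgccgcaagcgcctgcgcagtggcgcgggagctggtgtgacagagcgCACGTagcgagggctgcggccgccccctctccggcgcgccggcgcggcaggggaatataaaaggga
Bnip3: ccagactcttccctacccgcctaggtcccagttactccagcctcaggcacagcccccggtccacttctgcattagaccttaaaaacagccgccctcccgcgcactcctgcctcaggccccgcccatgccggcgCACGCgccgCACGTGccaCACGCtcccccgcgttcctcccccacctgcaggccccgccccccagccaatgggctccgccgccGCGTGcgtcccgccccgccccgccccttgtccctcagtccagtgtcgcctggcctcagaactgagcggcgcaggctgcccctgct
Ldha: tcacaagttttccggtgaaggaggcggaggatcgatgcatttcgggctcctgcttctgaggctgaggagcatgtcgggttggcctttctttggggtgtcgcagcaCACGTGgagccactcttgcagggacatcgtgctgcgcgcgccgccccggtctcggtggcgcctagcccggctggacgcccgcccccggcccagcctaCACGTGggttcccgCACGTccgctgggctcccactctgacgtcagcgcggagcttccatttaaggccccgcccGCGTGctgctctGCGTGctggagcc
The windows are chr10:59323046-59323345 (plus strand), chr7:138909457-138909756 (minus strand) and chr7:46845554-46845853 (plus strand). Ldha had 7 matches in this window, Bnip3 had 5 and P4ha1 had 3. RefSeq windows were matched for 33 members (Ndrg1 had no entry), with several start sites for some. Of these 50 windows, 40 (80%) held a match, against 43.8% of 32851 windows of all genes. The median GC content was 62.7% for the members' windows and 52.7% for all windows. The share was 77.8% for 27 windows of path enzymes and 75% for 12 windows of HIF targets outside the path, so the letters did not set these roles apart.

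The levels of the members set the scale on which their differences are read. Expressed per length as TPM (read counts scaled by exonic length and library size), the most abundant members were Pkm, Aldoa and Gapdh. Pkm, which encodes the pyruvate kinase that ends the path to pyruvate, ran between 862 and 1208 TPM over the 10 libraries. Aldoa, the main aldolase gene here, ran between 819 and 1173 TPM, and Gapdh, the dehydrogenase of the middle of the path, between 825 and 1156 TPM. The ranges of these 3 genes overlap, so their order does not exceed their spread. The next step down held Tpi1 (441 to 563 TPM), Pgk1 (385 to 548 TPM) and Ldha (362 to 514 TPM), which encode triosephosphate isomerase, phosphoglycerate kinase and the A subunit of lactate dehydrogenase, and these ranges overlap too. Outside the path the most abundant HIF target was P4ha1, a collagen prolyl hydroxylase subunit, at 107 to 146 TPM. Hif1a ran between 59.7 and 81.9 TPM and Arnt between 34.3 and 47.8 TPM. Bnip3, a mitophagy receptor, stood at 13.9 to 18.5 TPM, and Adm, the vasodilator adrenomedullin, at 0.150 to 0.678 TPM. Egln3, a prolyl hydroxylase that HIF itself induces, had 0 to 3 reads per library and was not tested; the other 33 members passed the filter on low counts.

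**Figure D1:**
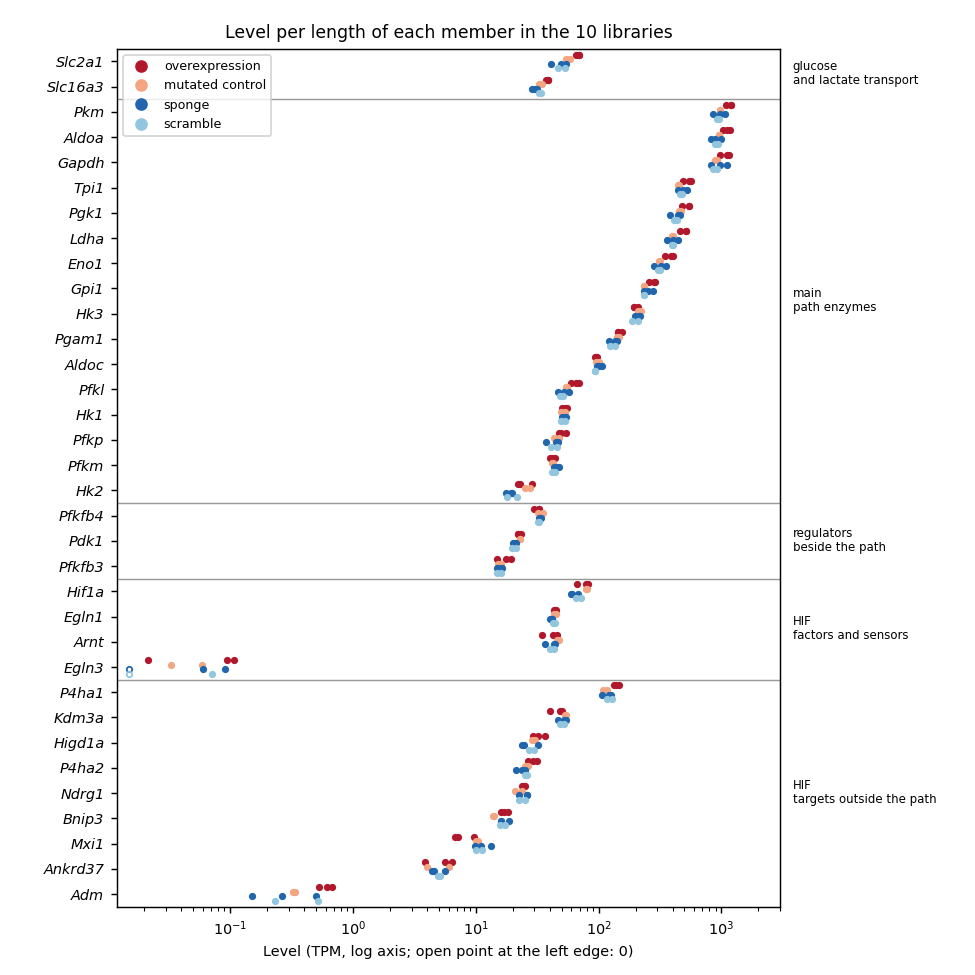
Level per length (TPM, log axis) of each of the 34 members in each of the 10 libraries, grouped by role, with 1 point per library coloured by vector group. Path enzymes span from about the level of Hk2 to that of Pkm, while Egln3 and Adm lie below 1 TPM in all libraries.

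By level per length, each family kept the same leading isozyme in every library. Of the hexokinase transcripts that start the path, Hk3 made up 71.4% to 74.6% of the family's summed TPM, Hk1 17.2% to 19.7% and Hk2 6.58% to 9.75%. Among phosphofructokinases, Pfkl made up 36.1% to 42.3%, Pfkm 24.7% to 35.5% and Pfkp 28.5% to 33.4%. The lead of Pfkl rests on the division by exonic length, 6675 bases for Pfkl and 13401 for Pfkp. Before that division Pfkp had more reads than Pfkl in every library, such as 187 against 128 CPM in overexpression replicate 1. The share of Pfkl was 42.3%, 41.9% and 39.1% with overexpression and 37.6% and 39.6% in the mutated control, so the groups overlapped. The share of Hk2 was 8.62%, 9.75% and 8.19% with overexpression and 8.43% and 9.69% in the mutated control. It was 6.73%, 6.58% and 6.80% with the sponge and 7.12% and 7.69% with the scramble. All 5 libraries with a hairpin vector therefore had a larger Hk2 share than all 5 with a sponge or scramble vector, a split that was noticed in the data and not tested. Aldoa made up 89.4% to 92.3% of aldolase transcripts, P4ha1 81.1% to 83.6% of the prolyl hydroxylase pair with P4ha2, and Pfkfb4 62.9% to 70% of the pair with Pfkfb3.

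**Figure D2:**
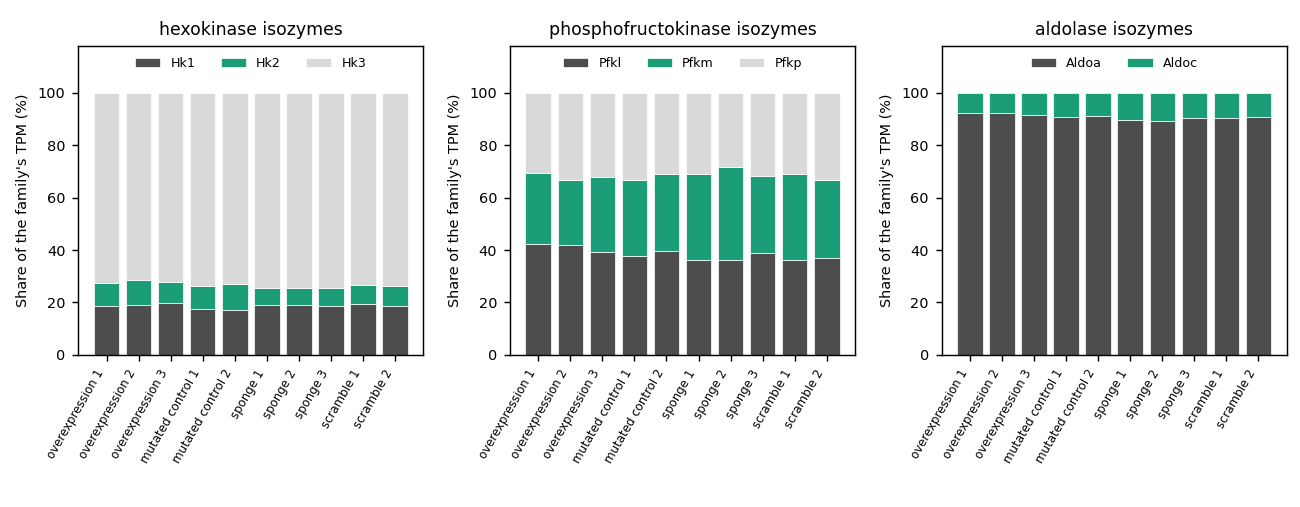
Share of each isozyme in its family's summed TPM (%, stacked bars) in each of the 10 libraries, for hexokinases, phosphofructokinases and aldolases. Hk3 holds 71.4% to 74.6% of hexokinase transcripts in all libraries, and the Hk2 band is wider in the 5 overexpression and mutated control libraries.

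With miR-342-3p overexpression the glycolytic path stood a little above the mutated control, by about the same step for most enzymes, yet no member passed the test across all genes. In bulk RNA, fewer cells of a kind and less RNA per cell cannot be told apart. The largest path difference was that of Ldha, at 1.28-fold (log2 fold change 0.35, SE 0.11). Among the HIF targets P4ha1 and Bnip3 had the smallest p, at 1.27-fold and 1.26-fold, whereas Mxi1, a Max-binding antagonist of Myc, was 1.27-fold lower and Kdm3a, a histone H3 lysine 9 demethylase, 1.13-fold lower. Called genes were those with a Benjamini-Hochberg adjusted p under 0.05 in edgeR's quasi-likelihood test over 15767 genes. By that rule 0 members were called, against 85 genes in all (0.539%); DESeq2 called 1 of 33 members, P4ha1, and 3.17% of all genes, so the members' share was near the background, and limma-voom called 0 members. At an unadjusted p under 0.05, 13 of the 33 tested members passed, 11 higher and 2 lower, against 2874 of the 15767 genes. Without the filter on low counts, edgeR called 11 of 34 members (32.4%), 10 higher and 1 lower, against 4.67% of 29774 genes. Every other edgeR setting run called 0 members in this comparison, and the cause of the difference was not tested.

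The 16 path enzymes had a median log2 fold change of 0.24, and 14 of them were above 0. The 9 HIF targets outside the path had a median of 0.21 but a wider range, −0.35 to 0.90, and 7 were above 0. Over all genes tested the median was −0.01 and 48.8% were above 0. Against this control the medians of these 2 roles thus lay close together, while against the scramble they were 0.27 and 0.11. The upper end of the targets' range was Adm (SE 0.50), which rested on 3 to 15 reads per library. At the lower end, the lowest path enzyme was Hk3 at −0.06 (SE 0.07), against Mxi1 at −0.35 (SE 0.14) among the targets. The groups did not overlap, with overexpression higher, for 11 of 16 path enzymes and 4 of 9 HIF targets; 18.9% of all genes tested were of that kind. They did not overlap, with overexpression lower, for 0 path enzymes, 2 HIF targets (Mxi1 and Kdm3a) and Arnt, against 19.3% of all genes. The medians were 0.27 for the 2 transporters, 0.02 for the 3 regulators and −0.02 for the 3 tested HIF factors and sensors.

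**Figure D3:**
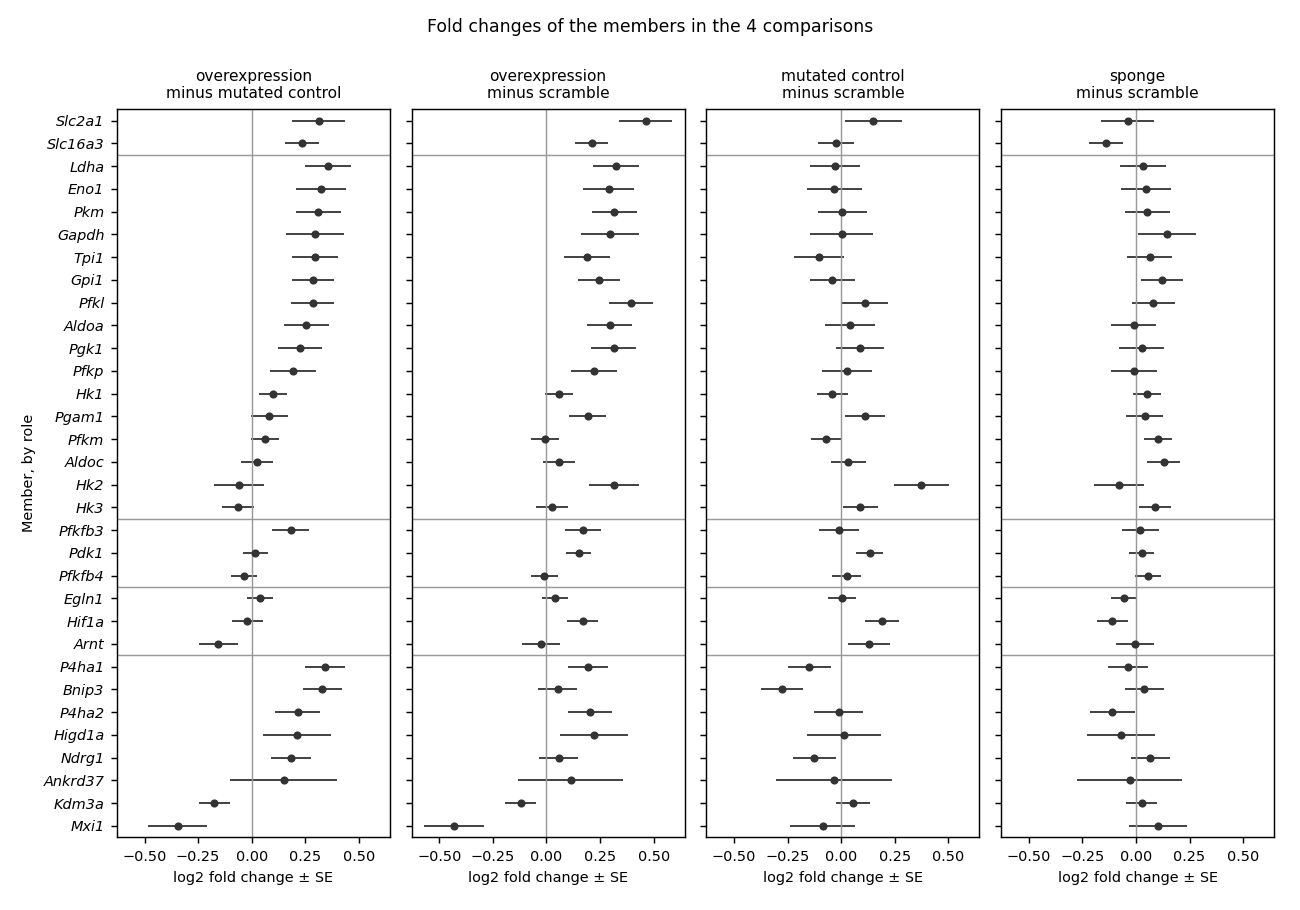
log2 fold change (points) with its SE (bars) of 32 tested members in the 4 comparisons, by role and ordered within a role by the comparison of overexpression with the mutated control; Adm, whose SE was 0.50, is left out. Most path enzymes lie between 0.19 and 0.35 in that comparison and near 0 in sponge minus scramble, and Mxi1 is lowest among the members shown in both overexpression comparisons.

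P4ha1 (chromosome 10, 59159118 to 59209126 in the deposited table) carried both kinds of seed match shown above. It had 166, 166 and 149 CPM with overexpression, against 120.4 and 133 CPM in the mutated control. The 3 overexpression libraries lay above both control libraries. Its log2 fold change was 0.34 (SE 0.09, 95% interval 0.13 to 0.55), with an adjusted p of 0.127 by edgeR's quasi-likelihood test and 0.0387 by DESeq2. Against the scramble group, with 137 and 144 CPM, the same overexpression libraries gave 0.19 (SE 0.09). P4ha2, its isozyme, was at 0.21 (SE 0.10) against the mutated control, with overlapping groups.

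Bnip3 (chromosome 7, 138492565 to 138511248) had 10.6, 10.6 and 11.3 CPM with overexpression, against 8.59 and 8.64 CPM in the mutated control. The groups did not overlap, and the log2 fold change was 0.33 (SE 0.09, edgeR adjusted p = 0.132). The scramble libraries had 11.1 and 9.84 CPM and the sponge libraries 9.96, 11.6 and 10.6 CPM. It was thus the mutated control that stood lowest of the 4 groups, and overexpression minus scramble was 0.05 (SE 0.09) for this gene. Of the exonic bases of Bnip3, 22.3% overlap a gene annotated on the other strand, and the counting did not use strand.

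Ldha (chromosome 7, 46490899 to 46505051) had 500.5, 468 and 412 CPM with overexpression, against 354 and 366 CPM in the mutated control. Every overexpression library was higher, and the log2 fold change was 0.35 (SE 0.11, edgeR adjusted p = 0.147). In the scramble group it had 372 and 364 CPM, close to the mutated control, and overexpression minus scramble was 0.32 (SE 0.11).

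Other enzymes of the path differed by similar amounts. Eno1 (enolase), Pkm, Gapdh, Tpi1, Gpi1 (glucose-6-phosphate isomerase), Pfkl and Aldoa had log2 fold changes between 0.25 and 0.32 against the mutated control, with SE between 0.10 and 0.14. Pgk1 was at 0.22 and Pfkp at 0.19, also without overlap of the groups, and Hk1 at 0.10. The isozymes Pfkm (0.06), Aldoc (0.02), Hk2 (−0.06) and Hk3 (−0.06) and the mutase Pgam1 (0.08) had overlapping groups. Gapdh, often used as a loading control, had 1404, 1259 and 1092 CPM with overexpression, against 995 and 1046 CPM in the mutated control.

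The 2 transporters, which bring glucose in and carry lactate out, were on the same side. Slc2a1, the glucose transporter GLUT1 with a seed match above, had 71.5, 67.3 and 62.1 CPM with overexpression, against 51.6 and 56.5 CPM in the mutated control. Slc16a3, the lactate exporter MCT4, had 60.03, 57.2 and 54.5 CPM with overexpression, against 46.8 and 50.6 CPM in the mutated control. Neither gene's groups overlapped, and the log2 fold changes were 0.31 (SE 0.12, edgeR adjusted p = 0.231) and 0.24 (SE 0.08, edgeR adjusted p = 0.174).

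Against the mutated control, the oxygen-sensing genes themselves did not follow the path. Hif1a had 116, 133 and 128 CPM with overexpression, against 126 and 129 CPM in the mutated control, and the groups overlapped. Its log2 fold change was −0.02 (95% interval −0.18 to 0.14). Arnt, the other HIF-1 subunit, whose 8mer match lies in a repeat, was at −0.16 (SE 0.09) without overlap. Egln1, the main oxygen sensor, was at 0.04 (SE 0.06). The regulators Pfkfb3, Pfkfb4 and Pdk1, which tune phosphofructokinase and pyruvate entry into mitochondria, were at 0.18, −0.04 and 0.02, with overlapping groups. Of the remaining HIF targets, Higd1a (0.21), Ankrd37 (0.15) and P4ha2 had overlapping groups. Ndrg1 (0.18) did not overlap, and Adm (0.90, SE 0.50) rested on 3 to 15 reads per library.

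Among the 5 members with a seed match, the log2 fold change with overexpression against the mutated control was 0.34 for P4ha1, 0.31 for Slc2a1, 0.28 for Pfkl, 0.02 for Aldoc and −0.16 for Arnt. With the sponge against the scramble it was −0.04 for P4ha1, −0.04 for Slc2a1, 0.08 for Pfkl, 0.13 for Aldoc and −0.004 for Arnt. Arnt was the only one of the 5 with a value below 0 under overexpression, and none of the 10 values passed the test in edgeR.

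The path enzymes varied together between libraries of the same group, and this within-group variation was as large as the differences between groups. Their summed level was 7841, 7301 and 6511 CPM with overexpression, against 5953 and 6057 CPM in the mutated control. With the sponge it was 6121, 5482 and 7125 CPM, against 5940 and 6009 CPM in the scramble. The 4 control libraries thus lay within 5940 and 6057 CPM, while the sponge libraries spread on both sides of them. Sponge replicate 3 exceeded overexpression replicate 3 in 15 of 16 path enzymes and the other sponge libraries in 15 of 16. Overexpression replicate 1 was the highest of the 10 libraries for 9 of 16, and sponge replicate 2 the lowest for 10 of 16. For 0 of 16 enzymes did all overexpression libraries exceed all 7 others.

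The 9 HIF targets outside the path did not all vary in the same direction, and their sum and median moved less than those of the path enzymes. P4ha1, P4ha2 and Higd1a were high in overexpression replicates 1 and 2 and low in sponge replicate 2, as most path enzymes were, and Mxi1 was the opposite. The level of Mxi1 on the log2 scale ran from −0.456 to 0.398 around the mean of the groups, and that of Higd1a from −0.298 to 0.401. The summed level of the targets was 426, 429 and 406 CPM with overexpression, against 379 and 392 CPM in the mutated control. It was 402, 376 and 421 CPM with the sponge, against 398 and 405 CPM in the scramble. The SD between replicates of the per-library median log2 level was 0.131 for the path enzymes and 0.0650 for these targets. Overexpression replicate 1, replicate 2 and replicate 3 had per-library medians of 0.30, 0.20 and 0.02 for the path enzymes and 0.15, 0.07 and 0.01 for the targets, each relative to the mean of the 4 groups. Without replicate 1 the median fold change of the path against the mutated control was 0.19, and without replicate 3 it was 0.33; for the targets it was 0.14 and 0.30.

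**Figure D4:**
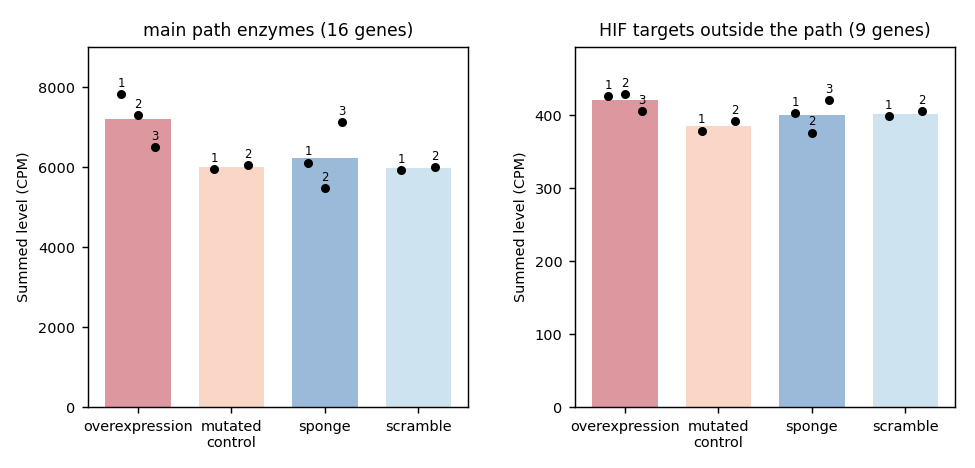
Summed level (CPM) of the 16 path enzymes and of the 9 HIF targets outside the path; bars are group means, points are single libraries with their replicate numbers, and both axes start at 0. Path enzymes range from 5482 CPM (sponge replicate 2) to 7841 CPM (overexpression replicate 1), and the 4 control libraries sit between 5940 and 6057 CPM.

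**Figure D5:**
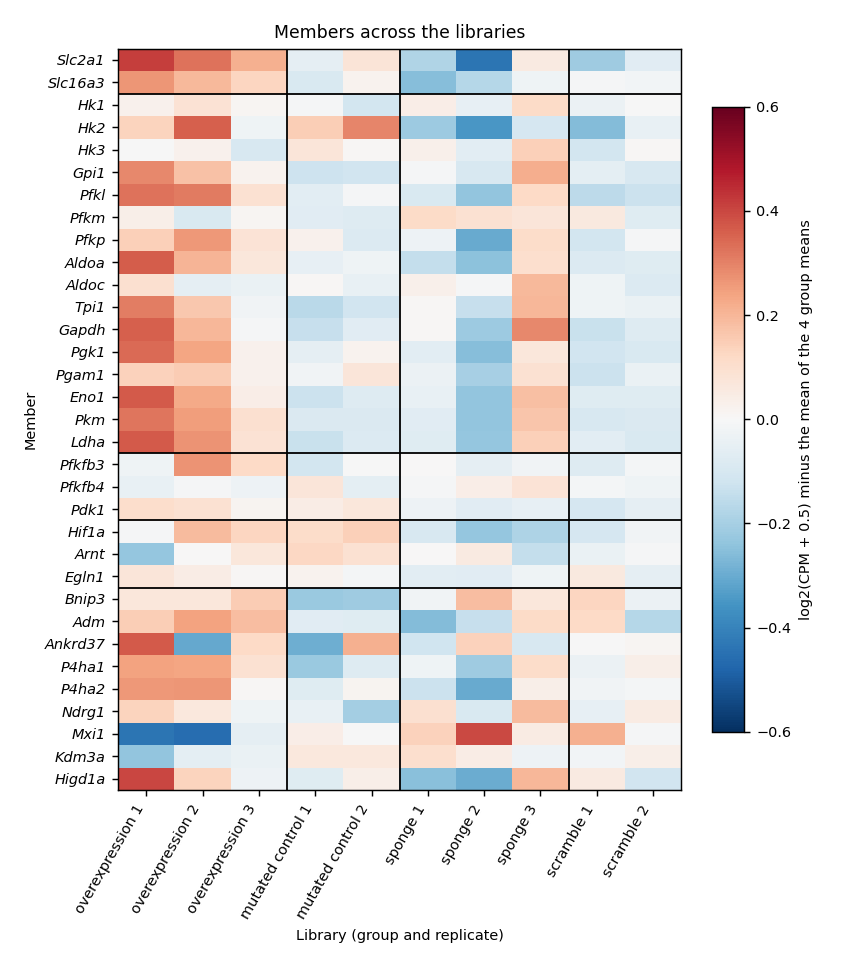
Level of the 33 tested members (rows, by role) in each library (columns, by group) as log2(CPM + 0.5) minus the mean of the 4 group means. Overexpression replicates 1 and 2 and sponge replicate 3 are red over most path enzymes and sponge replicate 2 is blue, while Hk1, Hk3, Pfkm and Aldoc vary less and Mxi1 runs the other way.

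Properties of the libraries and genes moved with these values. The deepest overexpression library was replicate 1 and the shallowest replicate 3, which were also the highest and lowest of that group in the path sum. In the sponge group the order was the reverse: replicate 2 was the deepest and had the lowest path sum, and replicate 3 was the shallowest and had the highest. Exonic length moved with the fold change against the mutated control: genes were split by length into 3 classes of equal number. At a mean level of 5 or more on the log2 CPM scale, the shortest class had a median of 0.11 (81.6% above 0), the middle class 0.06 (66.7% above 0) and the longest class −0.05 (36.7% above 0). By the same length limits 2 path enzymes were in the shortest class, 8 in the middle and 6 in the longest. The tested members' medians, taken without that limit on the level, were 0.22 in the shortest class, 0.25 in the middle and 0.18 in the longest. Without the limit, the medians of all genes tested were 0.02, 0.04 and −0.06 in the same order. Of the 10 macrophage markers 5 were above 0, and their summed level was 6470 to 6890 CPM with overexpression and 6510 to 6980 CPM in the mutated control. Of 6 endothelial markers 4 were tested and 3 were below 0, with a median of −0.33, and their summed level was 21.2 to 24.3 CPM with overexpression and 28.8 to 31.1 CPM in the mutated control. Kdr, the VEGF receptor gene, was called lower (log2 fold change −0.47, SE 0.08, edgeR adjusted p = 0.0352), and Clec4g was at 0 in every library. The mutated control stood highest of the 4 groups for Kdr, at 25 to 27.1 CPM. Kdr had 17.7 to 20.5 CPM with overexpression, 20.1 to 20.9 with the sponge and 19 to 20.7 in the scramble. The summed endothelial markers were at 23.9 to 25 CPM with the sponge and 23.1 to 25.1 CPM in the scramble. Of the Kupffer cell markers 6 were tested and 4 were below 0, with a median of −0.22, and 0 were called, with 1 at an unadjusted p under 0.05. Of 10 cell cycle genes 8 were above 0, with a median of 0.12, and 2 were called higher, beside 0.539% of all genes called. Against the scramble, overexpression had 6 of these genes above 0, 0 called and a median of 0.02. The mutated control minus the scramble had 8 of them below 0, with a median of −0.12. The part of depth, length, these markers or cycling in the members' values was not tested. Entries related to members summed to at most 3.85 CPM in any library. They included Eno1b, pseudogenes, paralogs such as Gapdhs, and Hk1os, which overlaps Hk1 on the other strand.

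The sponge left the members close to the scramble control. The medians were 0.05 for the path enzymes (13 of 16 above 0) and −0.03 for the HIF targets outside the path (4 of 9 above 0). By edgeR's quasi-likelihood test 0 of 33 members and 0 of 15767 genes (0%) were called, and at an unadjusted p under 0.05 the counts were 0 members and 368 genes. DESeq2 called 1 gene (0.00634%) and 0 members, and limma-voom called 0 genes. Groups did not overlap for 3 members with the sponge higher, against 6.9% of all genes, and for 1 with it lower, against 8.3%. Without sponge replicate 3 the path median was −0.03, and without replicate 2 it was 0.13.

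The members with the smallest p in this comparison were Slc16a3, Aldoc and Pfkm. Slc16a3 had 41.7, 44.3 and 48.9 CPM with the sponge, against 49.7 and 49.4 CPM in the scramble, a log2 difference of −0.14 (SE 0.08). Aldoc, the brain-type aldolase, had 89.7, 87.6 and 100.6 CPM with the sponge, against 86.4 and 83.1 CPM in the scramble, a difference of 0.13 (SE 0.08). Pfkm, the muscle-type phosphofructokinase, had 43.4, 42.6 and 42.1 CPM with the sponge, against 41.7 and 38.0 CPM in the scramble, a difference of 0.10 (SE 0.07). None of the 3 had overlapping groups, and each had an adjusted p of 1.00 by edgeR. The 95% interval was −0.20 to 0.27 for Ldha and −0.15 to 0.44 for Gapdh.

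The 2 control vectors were also compared, since they differ in kind. The mutated control minus the scramble gave a median of 0.02 for the path enzymes and −0.09 for the HIF targets outside the path, 2 of which were above 0. The edgeR test called 0 members and 4 genes (0.0254%), and 3 members had an unadjusted p under 0.05, against 1020 genes; DESeq2 called 90 genes (0.571%) and 0 members. Groups did not overlap for 11 members with the mutated control higher, against 24.1% of all genes, and for 5 with it lower, against 24.2%.

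Hk2, the inducible hexokinase, led that comparison. It had 40.9 and 45.3 CPM in the mutated control, against 30.7 and 35.7 CPM in the scramble, a log2 difference of 0.37 (SE 0.13, edgeR adjusted p = 0.612). With overexpression it had 40.4, 47.3 and 36.1 CPM, and with the sponge 31.5, 28.8 and 34.2 CPM. All 5 hairpin-vector libraries exceeded all 5 sponge-type libraries for this gene. The same held for Hif1a (lowest 116.2 against highest 115 CPM) and Pdk1 (lowest 47.3 against highest 45.7 CPM). The share of all genes with such a split was not computed, and its cause was not tested. Bnip3 differed by −0.28 (SE 0.10) and Hif1a by 0.19 (SE 0.08), with Hif1a at 126 and 129 CPM in the mutated control, against 109 and 115 CPM in the scramble. In a fit of these 2 groups alone, Hk2 (adjusted p = 0.00589) and Hif1a (adjusted p = 0.0379) were called by edgeR, 2 of 32 members tested, beside 574 of 15157 genes (3.79%).

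Overexpression was then set against the scramble, a comparison that shares its overexpression libraries with the one above. The path median was 0.27, with 15 of 16 enzymes above 0, and the HIF target median 0.11, with 7 of 9 above 0. The groups did not overlap, with overexpression higher, for 20 members, against 15.1% of all genes. These were 13 path enzymes, 3 HIF targets, the 2 transporters, Pdk1 and Hif1a. With overexpression lower, 2 members did not overlap, Mxi1 and Kdm3a, against 15.9%. Here Hif1a was at 0.17 (SE 0.07) and Pdk1 at 0.15 (SE 0.06), on the same side as the path. The edgeR test called 0 members and 7 genes (0.0444%), and 14 members had an unadjusted p under 0.05, against 2109 genes; DESeq2 called 2 members, Pfkl and Slc2a1, and 234 genes (1.48%).

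Pfkl, the liver-type phosphofructokinase (chromosome 10, 77822781 to 77845917), had 128, 127 and 109 CPM with overexpression, against 91.5 and 93.5 CPM in the scramble. The log2 difference was 0.39 (SE 0.10), with an adjusted p of 0.194 by edgeR and 0.0357 by DESeq2. Slc2a1 (chromosome 4, 118965908 to 118995180) had 46.2 and 51.0 CPM in the scramble and the overexpression values given above, a difference of 0.46 (SE 0.12, edgeR adjusted p = 0.198). Mxi1 (chromosome 19, 53298949 to 53364241) had 13.7, 13.5 and 18.0 CPM with overexpression, against 21.8 and 18.7 CPM in the scramble. It was the lowest-lying member here, at −0.43 (SE 0.14, edgeR adjusted p = 0.270), and against the mutated control, with 19.3 and 18.7 CPM, it was at −0.35 (SE 0.14, edgeR adjusted p = 0.235). Overexpression replicates 1 and 2 were low for Mxi1, while replicate 3 lay just under the control libraries. Kdm3a was at −0.12 (SE 0.07) against the scramble and −0.17 (SE 0.07) against the mutated control.

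The difference between the overexpression effect and the sponge effect, each against its own control, was tested as a contrast. It called 0 members and 0 genes (0%) in edgeR's quasi-likelihood test, with 1271 genes and 5 members at an unadjusted p under 0.05; DESeq2 called 48 genes (0.304%) and 0 members. The smallest p among the members was that of Slc16a3, where the effects differed by 0.37 (SE 0.11, edgeR adjusted p = 0.435). Ldha differed by 0.32 (95% interval −0.01 to 0.65), P4ha1 by 0.38 (SE 0.13) and Mxi1 by −0.45 (SE 0.20). The median was 0.18 for the path enzymes and 0.28 for the HIF targets outside the path.

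The other genes of both pathways gave a mixed picture with overexpression against the mutated control. Of 34 other glycolysis genes 26 were tested, 12 were above 0, the median was −0.01 and 0 were called, with 3 at an unadjusted p under 0.05; DESeq2 called 1, the transporter gene Slc2a6, higher. Of 43 other hypoxia genes 36 were tested, 22 were above 0 and the median was 0.04. At an unadjusted p under 0.05, 7 were higher and 4 lower, and 2 were called, both lower. Vegfa, the vascular growth factor and a textbook HIF target, fell to 50.4, 42.9 and 66.8 CPM with overexpression, against 105 and 125 CPM in the mutated control. This was 2.16-fold lower (log2 fold change −1.11, SE 0.20, edgeR adjusted p = 0.0489), opposite in sign to P4ha1 and Bnip3. Its sponge libraries had 57.9, 89.2 and 56.3 CPM, against 86.9 and 88.0 CPM in the scramble. The mutated control thus stood highest of the 4 groups for Vegfa. The overexpression libraries also lay below the scramble, but neither edgeR nor DESeq2 called Vegfa in that comparison. Narf had 29.4, 35.3 and 38.2 CPM with overexpression, against 48.2 and 47.9 CPM in the mutated control, 1.41-fold lower (edgeR adjusted p = 0.0489). Both calls lie at the edge of the threshold. They ended without overexpression replicate 2, either mutated control library, sponge replicate 1 or either scramble library, with edgeR adjusted p between 0.0732 and 0.399. That of Vegfa also ended without overexpression replicate 1 (adjusted p = 0.125), while the log2 fold change of Vegfa stayed between −1.29 and −0.97 in these fits. In the other 4 contrasts 0 genes of either list were called by edgeR. At an unadjusted p under 0.05 there were 17 with overexpression against the scramble, 1 with the sponge, 6 between the controls and 9 for the difference of the effects, and DESeq2 called 4, 0, 0 and 1 in that order; these counts run over both lists, which share Gbe1.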

How the data were processed

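Polyadenylated RNA was sequenced from 10 libraries in 4 groups taken from the sample titles. The authors deposited whole-number counts of reads per gene, not normalized; per the file headers they were made with featureCounts 2.0.1 on GENCODE vM30, by gene name, from paired reads that overlap a gene by 10 bases or more, without strand. FastQC 0.11.6, Trimmomatic and STAR 2.7.6a were used on GRCm38, per the submitters' processing notes; vM30 belongs to a later build, so gene coordinates are those the deposited table states. Other deposited columns, of position and exonic length, served for TPM. The table has 1 field fewer than column names because 2 libraries' counts are joined; each number was split at the likeliest place (negative binomial, dispersion 0.1, likelihood ratio of at least 100), which left out 51 genes and 0 members. The remaining scramble library was matched to its group by the header, but its replicate number is not certain. Counts were tested with edgeR 4.0.16 in R 4.3.3 (quasi-likelihood, robust, TMM, expression filter by group), with all 10 libraries in 1 fit of 6 residual degrees of freedom and Benjamini-Hochberg adjustment over 15767 genes at 0.05. CPM uses TMM factors; the test was tested on simulated data. Alternatives were DESeq2 1.42.0, limma-voom (limma 3.58.1), other scalings and filters, fits of the groups compared, replicate blocks and leaving out libraries. The members and gene lists were chosen with earlier results of these data known. Full values were given for the 3 members with the smallest p in each comparison, and of the other pathway genes only called ones were named. Intervals of fold changes come from the fit and hold the spread between libraries; limits on counts of 0 cover counting error only, since no molecular identifiers are recorded.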

Additional observations from a re-analysis of the deposited data

How the results depend on the processing

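Among the alternatives run, none turned the direction of a called result; the sponge medians near 0 changed sign in some. DESeq2 called 500 genes with overexpression against the mutated control, 1 with the sponge, 90 between the controls, 234 with overexpression against the scramble and 48 for the difference; members called were 1 (P4ha1) and 2 (Pfkl and Slc2a1) in the overexpression comparisons. With no filter on low counts, over 29774 genes, those called were 1390, 24, 149, 747 and 331 in the same order. In each overexpression comparison 11 of 34 members (32.4%) were called, 10 higher and Mxi1 lower. The share of all genes called was 4.67% against the mutated control and 2.51% against the scramble. The cause was not tested. Fits of the compared groups alone called 34 genes with overexpression against the mutated control and 574 between the controls, with 2 members there. Upper quartile factors gave 2 genes for the difference, and keeping the uncertain splits gave 5. Without both joined libraries 1 gene was called between the controls and 3 with overexpression against the scramble, and the HIF target median between the controls was −0.018.

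Residuals of same-numbered libraries, each taken around its group mean, correlated between −0.613 and 0.247 over 13 pairs with the title numbers. In a group of 2 libraries such residuals mirror each other, so these pairs are not independent. The scramble numbers are also not certain, so these values cannot decide whether the numbers mark paired libraries. A replicate block by title called 0 genes with overexpression against the mutated control, 1 between the controls and 3 with overexpression against the scramble; by description it called 0, 1 and 5 in the same order. No member was called with a block.

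Leaving out 1 library in turn gave 0 to 279 genes with overexpression against the mutated control, 0 to 36 between the controls, 1 to 37 with overexpression against the scramble and 0 to 7 for the difference. Members called stayed at 0 in all of them. The calls of Vegfa and Narf also ended in the fits of the compared groups alone, with a block and with the uncertain splits kept, and that of Narf without both joined libraries; upper quartile factors ended that of Vegfa. The lowest and highest counts in the first of these came without either mutated control library (0) and without overexpression replicate 3 (279). The HIF target median ranged from 0.14 to 0.30 with overexpression against the mutated control and from −0.090 to −0.017 between the controls. Depth limits Adm and Egln3 most, and each control group had 2 libraries.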
